A study of Mus musculus with 12 samples.

Results

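The genes described here encode 10 enzymes of branched-chain amino acid breakdown: Bcat2, Bckdha, Bckdhb, Dbt, Bckdk, Acadsb, Hsd17b10, Hibch, Ivd and Mccc1. They were picked by symbol, and they are 10 of the 18719 genes listed in either of the count tables. All 10 were listed in both tables and all 10 passed the filter on low counts. RNA-seq was made from J774A.1 cells, a mouse macrophage line, in 12 libraries and 4 groups of 3. The groups were WT and ACAT1 KO, each untreated ("no treatment") or given 100 ng/ml lipopolysaccharide (LPS), a bacterial wall component that activates macrophages, for 2 h. WT cells carried the Cas9 and GFP vector with no guide, and KO cells the same vector with a guide against exon 4 of Acat1, so both genotypes had been transfected, sorted for GFP and expanded from a few cells a well. The study's methods describe such populations as clonal. One of its legends gives 3 lines a genotype, another calls the replicates mice, and the labels name the cell line alone, so what sets the replicates apart is not certain.

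Leucine, isoleucine and valine are broken down in mitochondria by a shared start and 3 separate tails. A transaminase first removes the amino group, and the branched-chain ketoacid dehydrogenase complex then takes off the carboxyl group and makes a CoA ester, the irreversible step of the pathway. Bckdk phosphorylates and switches off that complex, and the phosphatase Ppm1k reverses this. The tails deliver acetyl-CoA, ketone bodies or succinyl-CoA, and Acat1, the gene knocked out here, is the thiolase that splits the last isoleucine intermediate into acetyl-CoA and propionyl-CoA.

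The libraries held 56948593 to 167280149 counted reads. The 3 libraries with the lowest totals (WT 1, WT 2 and ACAT1 KO 2) were all unstimulated, and libraries of a group differed far beyond counting noise. Unstimulated and LPS libraries came in separate tables, so the state of a library and its table cannot be told apart. All 8 macrophage markers checked were listed, with summed levels of 8583 to 10856 CPM (a gene's reads as a share of its library's, scaled by the trimmed mean of M values, TMM). Of the defining T cell, B cell, fibroblast, epithelial and neutrophil markers, 4 of 16 were in both tables and passed the low-count filter. Cd4 stayed at or below 0.198 CPM, Cd79a at or below 0.938 CPM and S100a8 at or below 5.14 CPM. Pdgfra, a fibroblast marker, was at 11.3 to 13.0 CPM in ACAT1 KO after LPS, 5.53 to 6.48 CPM in WT after LPS and 1.14 to 1.67 CPM in the unstimulated libraries. Its part in the results below was not tested.

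The targeted gene followed its labels. Acat1 stood at 108.4, 107.1 and 80.8 CPM in unstimulated WT and at 28.9, 25.5 and 26.1 CPM in unstimulated ACAT1 KO. After LPS it stood at 85.4, 95.4 and 65.0 CPM in WT and at 19.9, 18.5 and 18.9 CPM in ACAT1 KO. WT library 3 was the lowest of its group in both states, and no KO library came near any WT library. Acat1 was lower by a log2 fold change of -1.87 (SE 0.124, adjusted p = 0.00876) unstimulated and -2.08 (SE 0.130, adjusted p = 0.000787) after LPS, by edgeR, with the quasi-likelihood test and p-values adjusted by Benjamini and Hochberg over all genes tested, as for every adjusted p here unless another tool is named.

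All 10 genes were well expressed, with 1019 to 16218 reads a gene and library. Per exon length (RPKM, CPM divided by kilobases of exon), the order in unstimulated WT was led by Hsd17b10 (36.0 ± 2.96, SD, n = 3), a dehydrogenase of the isoleucine tail that also belongs to mitochondrial RNase P. Next came the kinase Bckdk at 28.0 ± 0.914. The decarboxylase subunits followed, Bckdha at 19.8 ± 0.913 and Bckdhb at 17.5 ± 1.18, with library ranges that just touched. The mitochondrial transaminase Bcat2 lay at 16.2 ± 0.436, and Dbt, the acyltransferase core of the complex, at 11.5 ± 0.806. Acadsb, the short branched-chain acyl-CoA dehydrogenase of isoleucine, lay at 9.21 ± 0.258. The lowest were Ivd (isovaleryl-CoA dehydrogenase of leucine) at 5.57 ± 0.522, Hibch (3-hydroxyisobutyryl-CoA hydrolase of valine) at 4.83 ± 0.583 and Mccc1 (the biotin subunit of methylcrotonyl-CoA carboxylase of leucine) at 2.88 ± 0.130. Apart from Bckdha with Bckdhb and Ivd with Hibch, no neighbours in this order overlapped in their library ranges. The order depends on which exons count as the gene, since most of these genes have several annotated transcripts.

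The value of Bckdha carries a limit from its position. On chromosome 7 (GRCm38, 25629946 to 25658981, minus strand) it shares 1171 exon bases, or 61.7% of its own, with B3gnt8 on the opposite strand, and although the library kit was directional, the sources used here do not say whether counting used the strand. B3gnt8 itself was low, at 1.94 to 6.67 CPM in the unstimulated libraries and 0.295 to 0.574 CPM after LPS. Its log2 fold change with LPS was -3.01 in WT and -3.32 in ACAT1 KO. What the overlap does to the counts of Bckdha was not tested. Bcat2 shares 15.9% of its exon bases with an antisense gene that neither table lists, and the overlaps of Mccc1 were below 3% each (2.93% at most).

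**Figure D1:**
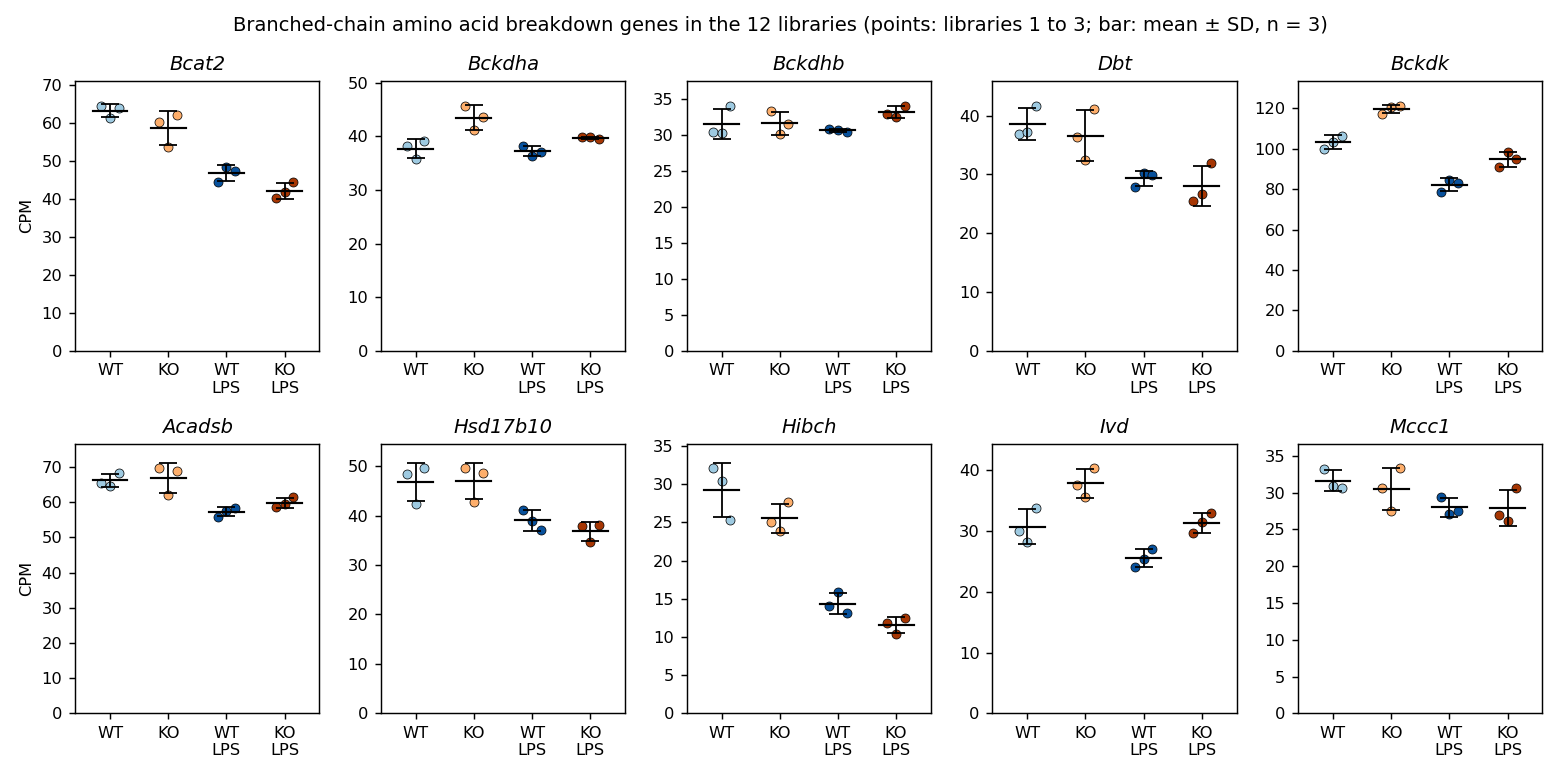
Level of each of the 10 genes (vertical axes, CPM, from 0) in the 3 libraries of each group, with the mean ± SD. Bckdha, Bckdk and Ivd are higher in ACAT1 KO than in WT in both states without overlap. Of all genes, 12.2% are higher without overlap unstimulated and 15.2% after LPS. Hibch drops from 25.3 to 32.1 CPM in unstimulated WT to 13.2 to 15.9 CPM after LPS.

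The genes that carried most of what follows lie in different places of the genome: Bckdk on chromosome 7 (127904082 to 127910221), Ivd on chromosome 2 (118861954 to 118882909) and Hibch on chromosome 1 (52844929 to 52920986), all on the plus strand of GRCm38. For these genes, called between genotypes or changed most by LPS, the stretch just upstream of each is shown, cut before the first annotated exon, from RefSeq's promoter windows (GRCm38.p6). Capitals mark a CCAAT box (CCAAT or, on the other strand, ATTGG) and a GC box (GGGCGG or CCGCCC).
Ivd, chr2:118861804-118861953, plus strand: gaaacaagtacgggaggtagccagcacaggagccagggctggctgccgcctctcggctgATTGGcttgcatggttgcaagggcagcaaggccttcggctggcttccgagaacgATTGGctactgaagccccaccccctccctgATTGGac
Bckdk, chr7:127903923-127904072, plus strand: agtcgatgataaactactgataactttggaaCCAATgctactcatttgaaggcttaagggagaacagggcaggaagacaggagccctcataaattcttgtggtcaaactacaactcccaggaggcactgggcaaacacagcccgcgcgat
Hibch, chr1:52844788-52844928, plus strand: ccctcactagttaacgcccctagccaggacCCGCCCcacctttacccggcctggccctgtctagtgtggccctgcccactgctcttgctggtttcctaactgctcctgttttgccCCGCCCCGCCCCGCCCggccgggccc

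The 3 stretches share neither motif throughout. The Ivd stretch holds 3 CCAAT boxes, all on the minus strand, at 131, 77 and 47 bases before the RefSeq start, and no GC box. The Bckdk stretch holds 1 CCAAT box, 119 bases before its start. The Hibch stretch holds 4 GC boxes, 3 of them overlapping in a run, and no CCAAT box. Over whole windows of 300 bases, 9 of the 10 genes had an entry, with 11 windows in all, and Dbt had none. A CCAAT box was found in 6 of the 11 windows (5 genes), against 37.4% of all 32851 promoter windows, and a GC box in 5 of the 11 (5 genes), against 35.7%. The Ivd window held 4 CCAAT boxes and the Mccc1 window 3, and 3.37% of all windows held 3 or more. A TATA box (TATAAA) was found in 1 of the 11 windows, that of Bckdk, against 13.6%. The letters AAGGTCA, a nuclear receptor element, were in no window of these genes, against 4.72% of all windows. The interferon response element GAAA, any 2 bases, GAAA was found in 1 of the 11, that of Hsd17b10, against 3.44%. The motifs were searched on both strands and chosen after the letters had been seen, and a match is a description, not a bound site.

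The first comparison asks how the transcripts of the pathway differed between ACAT1 KO and WT. What sets the replicates apart is not certain, so loss of Acat1 cannot be told apart from differences between the expanded populations. After LPS, Ivd and Bckdk were higher in ACAT1 KO than in WT, and the other 8 genes did not pass the test. Unstimulated, none of the 10 passed. Of the further pathway genes, Acat1 itself was lower in ACAT1 KO in both states, and the cytosolic transaminase Bcat1 and the amino acid transporter Slc7a8 were lower after LPS. In bulk libraries such as these, fewer cells expressing a gene and less RNA a cell cannot be told apart.

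Ivd, which oxidizes isovaleryl-CoA in leucine breakdown, stood at 24.1, 25.4 and 27.0 CPM in WT after LPS. In ACAT1 KO after LPS it stood at 29.6, 31.4 and 32.9 CPM. Every KO library lay above every WT library, and the log2 fold change was 0.32 (SE 0.0712, adjusted p = 0.0241), a 1.25-fold difference. Unstimulated, Ivd stood at 30.0, 28.2 and 33.8 CPM in WT and at 37.5, 35.6 and 40.3 CPM in ACAT1 KO. The groups again did not overlap, with a log2 fold change of 0.31 (SE 0.0870) close to that after LPS, but the value did not pass the test (adjusted p = 0.122).

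Bckdk, the kinase that switches off the dehydrogenase complex, stood at 78.8, 84.7 and 83.1 CPM in WT after LPS. The ACAT1 KO libraries stood at 90.9, 98.6 and 94.9 CPM after LPS, all above WT. The log2 fold change was 0.23 (SE 0.0564, adjusted p = 0.0337), a 1.17-fold difference. Unstimulated, Bckdk stood at 99.8, 103.5 and 106.5 CPM in WT and at 117.4, 120.5 and 121.4 CPM in ACAT1 KO. These groups did not overlap either, with a log2 fold change of 0.22 (SE 0.0551) that did not pass (adjusted p = 0.0959).

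After LPS, 2 of the 10 genes were thus called, both higher, where 15.1% of all 16483 genes tested were called (5.93% higher and 9.12% lower). Before adjustment, 4 had a p under 0.05: Ivd, Bckdk and Bckdhb higher, where 14.1% of all genes were, and Hibch lower, where 17.2% were. Unstimulated, 0 of 10 were called, where 1.91% of 16440 genes were (0.742% higher and 1.17% lower). In that state Bckdha, Bckdk and Ivd were higher at an unadjusted p under 0.05, as were 9.73% of all genes, and none was lower, as 9.93% were. DESeq2 called Bckdk and Ivd there, and a fit over all 12 libraries called Bckdha, Bckdk and Ivd, but these fits called more of all genes too, 10.5% and 8.18% (4.95% and 3.6% higher). The median log2 fold change of the 10 genes was 0.01 unstimulated and 0.05 after LPS, where all genes had medians of 0.0035 and -0.0041. When 1 of the 6 LPS libraries was left out, the log2 fold change stayed at 0.20 to 0.26 for Bckdk and 0.28 to 0.37 for Ivd. Bckdk then lost its call in each such fit (adjusted p from 0.0575 to 0.126), and Ivd without WT 2, KO 2 or KO 3 (adjusted p up to 0.0818). With fewer libraries, the share of all genes called also fell, to between 5.18% and 13.3%.

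Among the genes that did not pass were the decarboxylase subunits that the kinase acts on. Bckdha was at 35.8 to 39.2 CPM in unstimulated WT and at 41.2 to 45.8 CPM in unstimulated ACAT1 KO, without overlap (log2 fold change 0.22, SE 0.0645, adjusted p = 0.140). After LPS its values were 36.4 to 38.2 CPM in WT and 39.5 to 39.9 CPM in ACAT1 KO (log2 fold change 0.11, SE 0.0523, adjusted p = 0.180). Bckdhb had a log2 fold change of 0.01 unstimulated, with a 95% interval of -0.16 to 0.19, and of 0.13 after LPS (0.01 to 0.26). Its unstimulated value changed sign in 5 of 14 other settings. Dbt, the core of the same complex, had intervals on both sides of 0 in both states, -0.30 to 0.17 unstimulated and -0.26 to 0.17 after LPS.

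Hibch and Bcat2 had values on the other side. Hibch, which releases free 3-hydroxyisobutyrate from its CoA ester in valine breakdown, stood at 14.0, 15.9 and 13.2 CPM in WT after LPS and at 11.9, 10.4 and 12.5 CPM in ACAT1 KO after LPS. All 3 KO libraries were below all WT libraries, at a log2 fold change of -0.29 (SE 0.100, adjusted p = 0.0927). Unstimulated, Hibch overlapped between genotypes (32.1, 30.4 and 25.3 CPM in WT, 25.0, 23.9 and 27.6 CPM in ACAT1 KO). Bcat2, which starts the breakdown inside mitochondria, was at 44.4 to 48.3 CPM in WT after LPS and at 40.1 to 44.3 CPM in ACAT1 KO after LPS, at a log2 fold change of -0.13 (SE 0.0644, adjusted p = 0.216).

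Acadsb, Hsd17b10 and Mccc1 showed no called difference in either state. Acadsb, which precedes Acat1 in the isoleucine tail, had log2 fold changes of 0.02 (95% interval -0.13 to 0.17) unstimulated and 0.08 (-0.04 to 0.21) after LPS. Hsd17b10, the dehydrogenase that feeds Acat1 its substrate, had 0.01 (-0.19 to 0.22) unstimulated and -0.06 (-0.22 to 0.09) after LPS. Mccc1 had -0.04 (-0.24 to 0.15) unstimulated and 0.02 (-0.16 to 0.20) after LPS. Counted by library ranges alone, 3 of the 10 genes were higher in ACAT1 KO without overlap when unstimulated, where 12.2% of all genes were, and 0 were lower, where 13.3% were. After LPS 5 were higher (Bckdha, Bckdhb, Bckdk, Acadsb and Ivd), where 15.2% were, and 2 were lower (Bcat2 and Hibch), where 21.7% were.

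**Figure D2:**
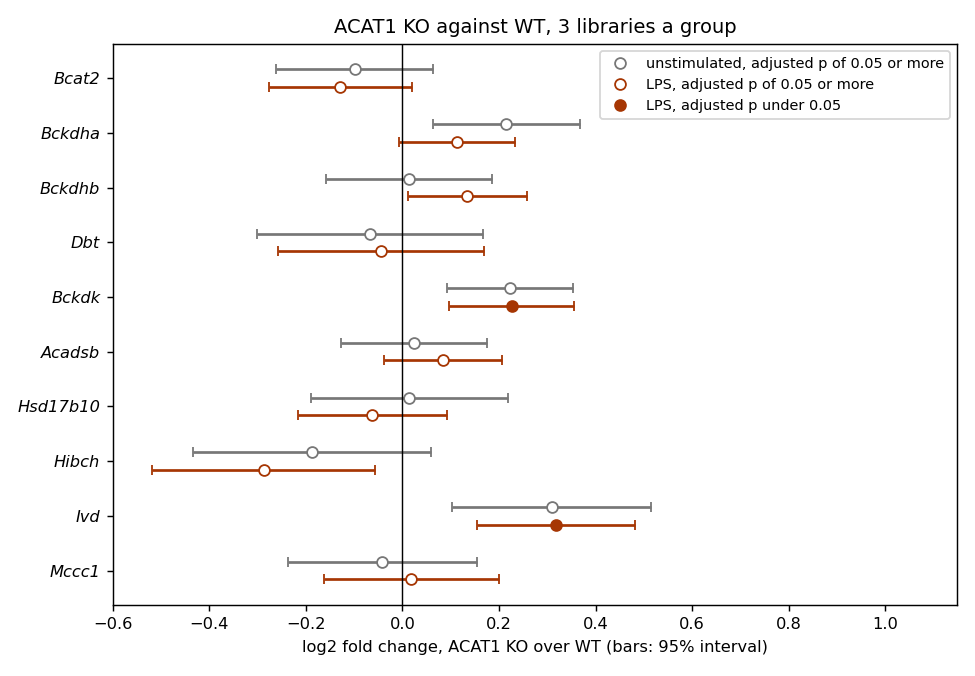
Log2 fold change of ACAT1 KO over WT (horizontal axis) for each gene, unstimulated (grey) and after LPS (brown), with 95% intervals and filled points for an adjusted p under 0.05. The filled points are Bckdk at 0.23 and Ivd at 0.32, and the values of both genes are nearly the same unstimulated.

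The neighbours of Ivd on chromosome 2 were higher in ACAT1 KO as a stretch. Within 5 Mb on either side of Ivd, 98 genes tested after LPS had a median log2 fold change of 0.31, against 0.32 for Ivd itself. Of those, 42 (42.9%) were called and 38 were called higher, where 27.1% of the tested genes of chromosome 2 were called. Unstimulated, 101 genes in this window had a median of 0.35, against 0.31 for Ivd. Of these, 14 (13.9%) were called, 13 of them higher, where 6.26% of the tested genes of chromosome 2 were called. The higher values reached beyond the window, and all tested genes of chromosome 2 had a median of 0.19 in each state. Around Bckdk on chromosome 7, the 148 genes within 5 Mb had a median of -0.0028 after LPS, and 83.1% of them lay below Bckdk. The 44 genes near Hibch on chromosome 1 had a median of -0.15 after LPS, against -0.29 for Hibch. Of these, 10 (22.7%) were called, 1 of them higher, where 16.5% of the tested genes of chromosome 1 were called. Whether the level of Ivd follows the stretch it lies in was not tested.

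**Figure D3:**
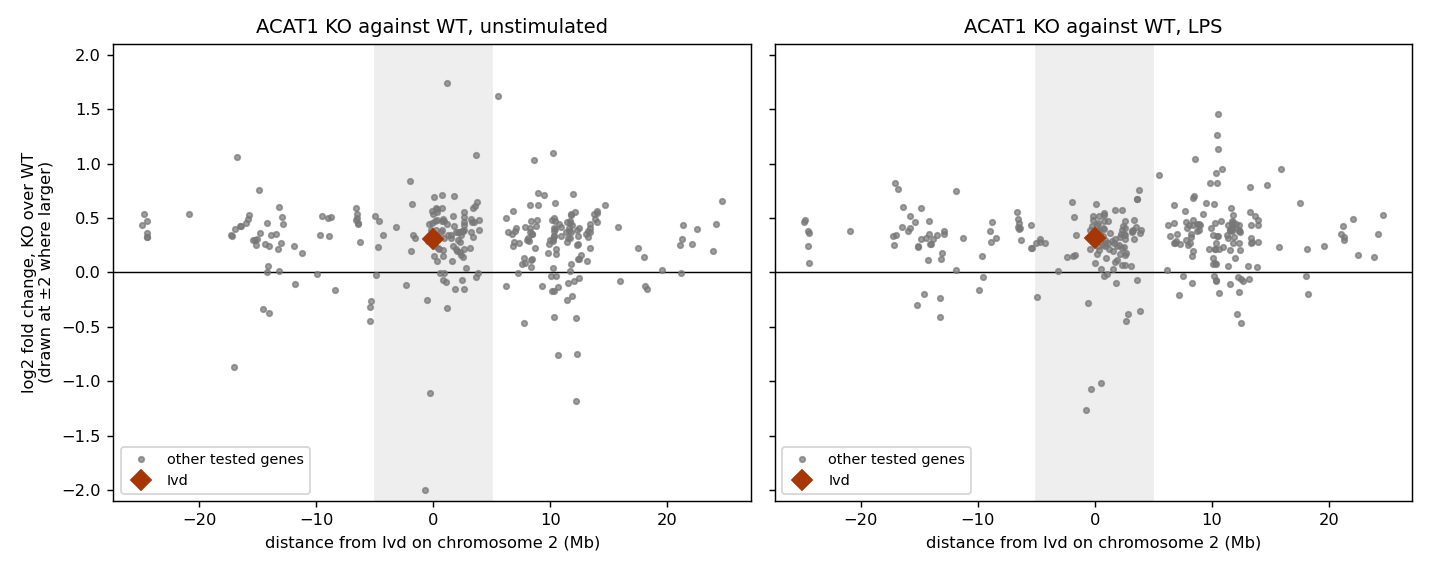
Log2 fold change of ACAT1 KO over WT (vertical axis, drawn at 2 or -2 where larger in size) against distance from Ivd on chromosome 2 in Mb (horizontal axis), unstimulated on the left and after LPS on the right, with the window of 5 Mb on either side shaded. Ivd (diamond) sits within the cloud of its neighbours, whose medians in the window are 0.35 unstimulated and 0.31 after LPS.

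The genes whose pattern over the 12 libraries was closest to that of Ivd, by the root mean square difference of centred log2 CPM among 16535 genes, were Snx5 (0.0481), Zdhhc12 (0.0591) and Ndufaf3 (0.0636). Snx5 and Zdhhc12 lie on chromosome 2 as well, and Ndufaf3 on chromosome 9. For Bckdk the closest were Rnaseh2a (0.0382) and Mthfsd (0.0501), both on chromosome 8, and Rtel1 (0.0546) on chromosome 2. Ivd and Bckdk themselves varied by root mean squares of 0.217 and 0.201 on that scale.

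Of 24 further genes of the pathway (transporters, transaminase, regulators and the later tail enzymes), 23 were in both tables and passed the low-count filter. Unstimulated, 1 of the 23 was called between genotypes, Acat1, which was lower, as were 1.17% of all genes. After LPS 3 were called, all lower: Acat1, Bcat1 and Slc7a8, where 9.12% of all genes were. Bcat1, the cytosolic transaminase, stood at 46.9, 56.8 and 48.6 CPM in WT after LPS and at 30.6, 33.6 and 33.8 CPM in ACAT1 KO after LPS. These groups lay far apart, at a log2 fold change of -0.61 (SE 0.0846, adjusted p = 0.00538). Unstimulated, Bcat1 was at 111.4 to 125.0 CPM in WT and 92.3 to 101.8 CPM in ACAT1 KO (log2 fold change -0.23, SE 0.0729, adjusted p = 0.152). Slc7a8, a carrier of neutral amino acids, was at 268.7 to 332.7 CPM in WT after LPS and 206.0 to 250.2 CPM in ACAT1 KO (log2 fold change -0.36, SE 0.0952, adjusted p = 0.0412). Its call was lost under upper-quartile scaling and when any 1 library other than WT 3 was left out, at log2 fold changes of -0.43 to -0.27, while those of Acat1 and Bcat1 held in all 6 such fits.

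The second comparison asks what 2 h of LPS did to the pathway in each genotype. In both, 7 of the 10 genes fell (Bcat2, Dbt, Bckdk, Acadsb, Hsd17b10, Hibch and Ivd), and none rose. Hibch of the valine tail fell most, to less than its unstimulated level by a factor of 2.04 in WT and 2.20 in ACAT1 KO. The other 6 fell by factors of 1.12 to 1.39, and Bckdha, Bckdhb and Mccc1 did not pass. Of all 16535 genes tested, 57.4% were called in WT and 60.7% in ACAT1 KO, and 28% and 31.2% were called lower. The median log2 fold change of the 10 genes was -0.27 in WT and -0.30 in ACAT1 KO, where all genes had medians of -0.02 and -0.03.

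Hibch went from 32.1, 30.4 and 25.3 CPM to 14.0, 15.9 and 13.2 CPM in WT. Its log2 fold change was -1.03 (SE 0.108, adjusted p = 5.83e-06), and in ACAT1 KO it was -1.14 (SE 0.108, adjusted p = 2.18e-06). By line number, the change was -1.20, -0.94 and -0.94 in the WT lines and -1.08, -1.20 and -1.15 in the KO lines, and the ranges of the genotypes overlapped.

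At the shared start of the pathway the genes did not move alike. Bcat2 fell by 0.44 on the log2 scale in WT (SE 0.0658, adjusted p = 0.000119) and by 0.48 in ACAT1 KO (SE 0.0658, adjusted p = 5.22e-05). Its libraries went from 61.2 to 64.5 CPM unstimulated down to 44.4 to 48.3 CPM after LPS in WT. In the dehydrogenase complex, Dbt fell by 0.40 in WT (SE 0.101, adjusted p = 0.00534) and by 0.38 in ACAT1 KO (SE 0.101, adjusted p = 0.00596). The decarboxylase subunits of the same complex did not pass. Bckdha had -0.02 in WT (95% interval -0.14 to 0.11) and -0.13 in ACAT1 KO (-0.25 to -0.01, adjusted p = 0.0615), and Bckdhb had -0.04 (-0.17 to 0.09) and 0.07 (-0.07 to 0.20). Per exon length, Bckdha therefore stood at 1.72 times Dbt in unstimulated WT and 2.24 times after LPS, and at 2.09 and 2.50 times in ACAT1 KO. The limit from the overlap with B3gnt8 applies to these values of Bckdha.

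The kinase Bckdk fell by 0.33 in WT (SE 0.0519, adjusted p = 0.000169) and by 0.34 in ACAT1 KO (SE 0.0518, adjusted p = 0.000127). Its opponent moved the other way. Ppm1k, the phosphatase that reactivates the complex, went from 6.57, 6.07 and 7.07 CPM to 39.5, 52.4 and 53.3 CPM in WT. In ACAT1 KO it went from 5.04, 5.47 and 5.60 CPM to 60.3, 65.8 and 56.2 CPM. Ppm1k was the gene of the pathway that rose most, by log2 fold changes of 2.88 (SE 0.119, adjusted p = 3.22e-09) and 3.50 (SE 0.122, adjusted p = 6.61e-10). Per exon length, the Bckdk transcript stood at 24.6 to 27.8 times that of Ppm1k in unstimulated WT and at 35.3 to 38.0 times in unstimulated ACAT1 KO. After LPS this ratio was 2.54 to 3.25 in WT and 2.44 to 2.75 in ACAT1 KO.

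**Figure D4:**
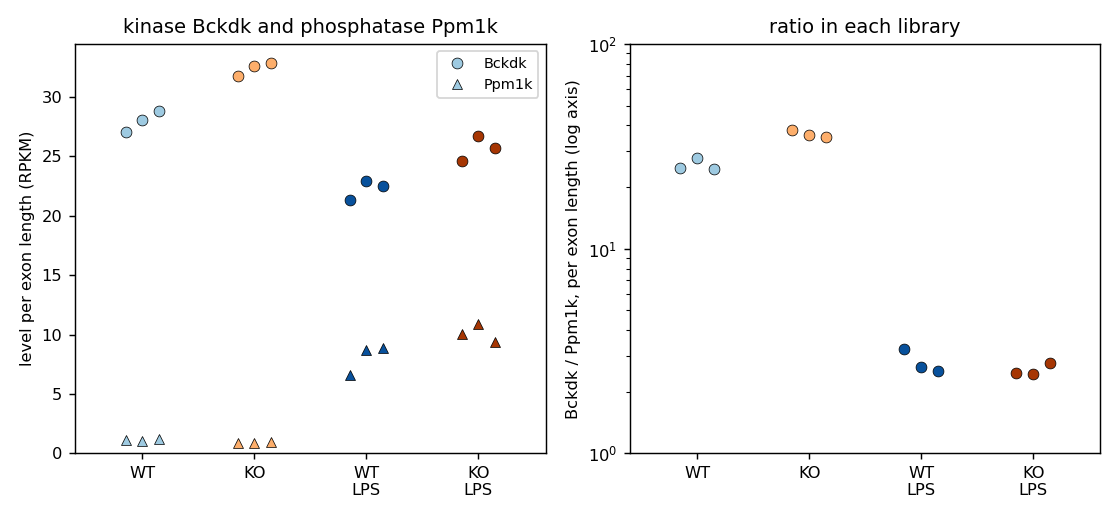
Left, level per exon length (RPKM, from 0) of the kinase Bckdk (circles) and the phosphatase Ppm1k (triangles) in each library of the 4 groups; right, their ratio in each library on a log axis. The ratio drops from 24.6 to 38.0 in the unstimulated libraries to 2.44 to 3.25 after LPS.

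In the leucine tail, Ivd fell by 0.27 in WT (SE 0.0803, adjusted p = 0.0129) and by 0.27 in ACAT1 KO (SE 0.0799, adjusted p = 0.0113). Mccc1, the next enzyme of leucine, had -0.17 in WT (95% interval -0.36 to 0.01, adjusted p = 0.0927) and -0.13 in ACAT1 KO (-0.31 to 0.05, adjusted p = 0.203). In the isoleucine tail, Acadsb fell by 0.21 in WT (SE 0.0558, adjusted p = 0.00698) and by 0.16 in ACAT1 KO (SE 0.0557, adjusted p = 0.0259). Hsd17b10 fell by 0.26 in WT (SE 0.0794, adjusted p = 0.0140) and by 0.35 in ACAT1 KO (SE 0.0794, adjusted p = 0.00226). Counted by library ranges, 8 of 10 genes were lower after LPS without overlap in WT, where 29.6% of all genes were, and 8 in ACAT1 KO, where 34.6% were. Bckdhb overlapped in both genotypes, Bckdha in WT and Mccc1 in ACAT1 KO.

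Same-numbered libraries of a genotype deviated together between the states, and were taken as the same line. With this pairing as a block, which called 30.7% of all genes lower in WT and 33.4% in ACAT1 KO, 8 of the 10 genes fell in WT and 9 in ACAT1 KO, since Mccc1 (adjusted p = 0.0126 in WT and 0.0461 in ACAT1 KO) and, in ACAT1 KO, Bckdha (adjusted p = 0.0492) passed as well. The sign of small changes depends on how libraries are scaled: upper-quartile scaling moved the median of all genes to -0.23 in WT and -0.17 in ACAT1 KO and called 10 and 9 of the genes lower, along with 40.4% and 39.7% of all genes. Under it Bckdha in WT stood at -0.23, level with that median, while Hibch was at -1.24. Leaving out 1 library kept the direction of every fall, while some smaller ones lost their call. Without unstimulated WT 3 the calls of Ivd and Hsd17b10 in WT were lost, and without LPS WT 3 that of Hsd17b10. Over all such fits the log2 fold change in WT was -0.33 to -0.19 for Ivd (adjusted p up to 0.0565) and -0.33 to -0.22 for Hsd17b10 (adjusted p up to 0.0575). In ACAT1 KO, Acadsb lost its call without unstimulated KO 1, unstimulated KO 3, LPS KO 1 or LPS KO 2 (-0.21 to -0.13, adjusted p up to 0.0982), and Ivd without unstimulated KO 3 (-0.31 to -0.22, adjusted p up to 0.0504).

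**Figure D5:**
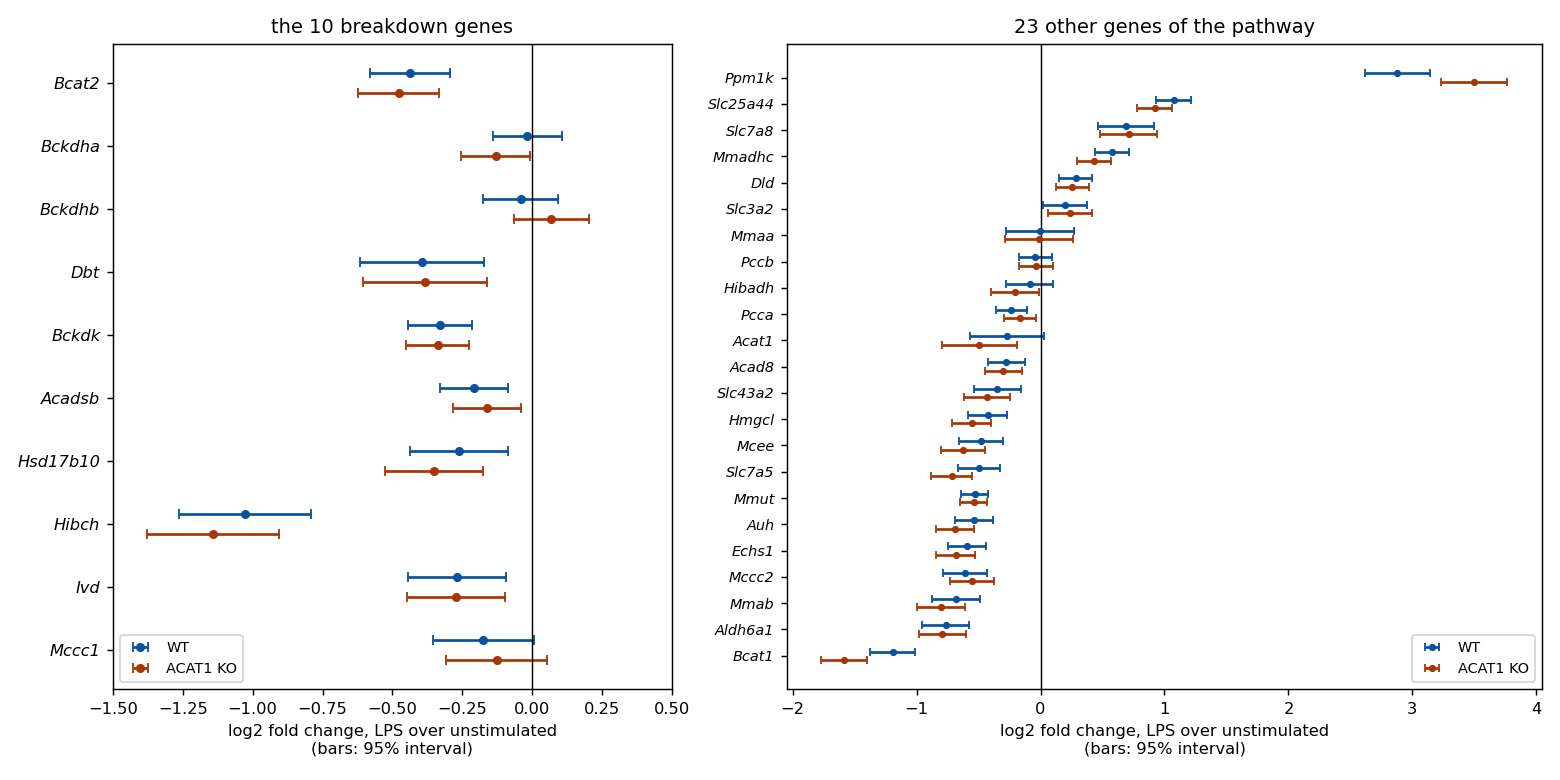
Log2 fold change of LPS over unstimulated (horizontal axes) in WT (blue) and ACAT1 KO (brown) with 95% intervals, for the 10 genes on the left and 23 other genes of the pathway on the right. On the left Hibch stands apart at -1.03 and -1.14; on the right Ppm1k is highest, at 2.88 and 3.50, and Bcat1 lowest, at -1.19 and -1.58.

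Beyond the kinase and phosphatase pair, most of the further pathway genes also fell. Of 23, 13 fell and 5 rose in WT, where 28% of all genes fell and 29.3% rose. In ACAT1 KO 14 fell and 6 rose, where 31.2% of all genes fell and 29.5% rose. Bcat1, the cytosolic transaminase, fell most, by 1.19 in WT (SE 0.0822, adjusted p = 1.72e-07) and its log2 fold change in ACAT1 KO was -1.58 (SE 0.0832, adjusted p = 1.61e-08). In WT it went from 111.4 to 125.0 CPM unstimulated to 46.9 to 56.8 CPM. Mmut, the methylmalonyl-CoA mutase at the end of the valine and isoleucine tails, fell by 0.53 in WT (adjusted p = 2.24e-06) and by 0.54 in ACAT1 KO (adjusted p = 1.65e-06). Aldh6a1, the valine tail enzyme that follows Hibch after one further step, fell by 0.77 in WT (adjusted p = 1.16e-05), and Auh, the hydratase of leucine, fell by 0.69 in ACAT1 KO (adjusted p = 4.12e-06). Acat1 fell in ACAT1 KO by 0.49 (adjusted p = 0.00881), while its value in WT of -0.27 did not pass (adjusted p = 0.113). With lines as a block, 20 genes were called in WT and 21 in ACAT1 KO, where 62% and 64.8% of all genes were. Acat1 was among the called pathway genes in both.

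The genes that rose were a regulator, some of the carriers and shared or cofactor enzymes. Slc25a44, the mitochondrial carrier of branched-chain amino acids, stood at 29.0, 29.1 and 27.2 CPM in unstimulated WT and at 64.1, 56.0 and 59.4 CPM after LPS. That was a log2 fold change of 1.07 (SE 0.0645, adjusted p = 5.59e-08), and in ACAT1 KO it was 0.92 (SE 0.0642, adjusted p = 1.64e-07). Mmadhc, which routes cobalamin towards Mmut, rose by 0.57 in WT (adjusted p = 8.54e-06) and 0.43 in ACAT1 KO (adjusted p = 8.27e-05). Slc7a8 and Dld, the dehydrogenase shared with other ketoacid complexes, rose in both genotypes, by 0.69 and 0.28 in WT. Slc3a2, the heavy chain of amino acid carriers, passed in ACAT1 KO (0.23, adjusted p = 0.0254) and not in WT (0.20, adjusted p = 0.0548). The carriers Slc7a5 and Slc43a2 fell instead, in both genotypes. Slc7a5 had log2 fold changes of -0.50 in WT (adjusted p = 0.000135) and -0.72 in ACAT1 KO (adjusted p = 6.06e-06). Slc43a2 had -0.35 in WT (adjusted p = 0.00432) and -0.43 in ACAT1 KO (adjusted p = 0.000951).

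The third comparison asks whether the response to LPS differed between the genotypes. Of the 10 genes, 0 passed the test of the interaction, where 0.187% of 16535 genes did, and 0 had an unadjusted p under 0.05, against 3.28% (higher) and 5.64% (lower) of all genes. DESeq2 also called 0. The differences in log2 response, KO minus WT, ran from -0.11 for Bckdha (95% interval -0.29 to 0.06) to 0.11 for Bckdhb (-0.08 to 0.30). For the genes that differed between genotypes after LPS, the intervals were -0.25 to 0.25 for Ivd and -0.17 to 0.15 for Bckdk. For Hibch the difference was -0.11 with an interval of -0.44 to 0.22. A larger response of Hibch in ACAT1 KO, by up to 0.44 on the log2 scale, thus lies within the interval.

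Of the other 23 genes, 0 passed the interaction test in the fit without line as a block, and 2 had an unadjusted p under 0.05. The larger values were those of Ppm1k, whose rise differed by 0.62 (SE 0.159, adjusted p = 0.163), and Bcat1, whose fall differed by -0.39 (SE 0.115, adjusted p = 0.237). With line as a block, which called 1.74% of all genes, Bcat1 passed (adjusted p = 0.0237) and Ppm1k did not (adjusted p = 0.0698), and DESeq2 without the block, which called 2.02%, called Ppm1k (adjusted p = 0.0186) and not Bcat1 (adjusted p = 0.0992). By line, the change of Bcat1 was -1.25, -1.14 and -1.20 in WT and -1.59, -1.58 and -1.59 in ACAT1 KO, with no overlap. The change of Ppm1k was 2.59, 3.11 and 2.92 in WT and 3.58, 3.59 and 3.33 in ACAT1 KO.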

How the data were processed

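The authors trimmed reads with Trimmomatic 0.33 and used HISAT2 and StringTie on GRCm38, per the submitters' processing notes and the study's methods. They deposited raw counts per gene in separate tables for unstimulated and LPS libraries, with log2 values (6 columns a table) and their own fold changes and p-values, which were not used. The step that made the counts and its strand setting are not given in the sources used here. Repeated gene rows (59 and 57, identical counts) were removed, and 16699 genes were in both tables.

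edgeR 4.0.16 (R 4.3.3) compared ACAT1 KO with WT within each table, and LPS with unstimulated and the interaction in 1 fit over 12 libraries, after its expression filter and TMM scaling. An adjusted p under 0.05 over all genes tested was called. The scripts were tested on simulated data, with planted changes larger than any of the 10 genes showed, so small differences were not covered. DESeq2 1.42.0, other scalings and filters, a replicate block and leaving out each library were alternatives. Members and lists were chosen with earlier results of these data known. Named were all 10 genes, Acat1, up to 3 called pathway genes with the smallest adjusted p per comparison and direction, and for genes called between genotypes the 3 closest patterns; the other genes named were chosen after their values were seen. Deviations from the group mean of same-numbered libraries of a genotype correlated between states at 0.374 to 0.573 over 10814 genes. Those of different numbers correlated at -0.358 to -0.098, but deviations cancel out within a group, so these values are no separate support. Numbers were taken to pair lines, which the labels do not state, and whether they mark a batch instead was not tested. The labels do not say that libraries came from separate cultures, so p-values measure the spread between these libraries. Lengths are from GENCODE exons on GRCm38, matched for 18691 of 18719 genes.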

Additional observations from a re-analysis of the deposited data

How the results depend on the processing

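Between genotypes, unstimulated, a fit over all 12 libraries called 3 of the 10 genes and DESeq2 2, where the fit as reported called 0, and they called 2 and 4 of the 23 further pathway genes where 1 was called. These fits called 8.18% and 10.5% of all genes, where 1.91% were called. After LPS DESeq2 called 5 of the 23 (18.7% of all genes) where 3 were called (15.1%). For the interaction, DESeq2, the replicate block, and the block with a term for the 3 libraries with the lowest totals called 1 of the 23 each, where 0 was called. These fits called 334, 288 and 457 of all 16535 genes, where 31 were called. The cause of these changes was not tested. Leaving out 1 library gave 0 to 1 of the 10 genes called after LPS between genotypes, 0 unstimulated, 5 to 7 lower after LPS in WT and 5 to 8 in ACAT1 KO. For the 23, these ranges were 2 to 4, 1, 18 to 19 and 18 to 21. Of all genes, in the same order and in either direction, 5.18% to 13.3%, 0.0414% to 3.18%, 52% to 58.3% and 54.1% to 61.5% were called. Interaction calls stayed at 0 for both lists in such fits, where 0.012% to 0.247% of all genes were called.

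With replicate number as a block between genotypes, 0 of the 10 genes were called unstimulated (0.918% of all genes) and 2 after LPS (13.5%). The labels do not say whether numbers pair samples across genotypes. Same-numbered WT and KO libraries correlated at -0.0932 to 0.476, and those of different numbers at -0.564 to 0.294. A shared batch by number was not tested. The pairing by line between states changed no call of the 10 genes other than those given. With the lowest-total term added, 8 were called in each genotype, where 9763 of all 16535 genes were called in WT and 11355 in ACAT1 KO. That term cannot be used between genotypes after LPS, where no such library stands. No called value changed sign under any alternative run.

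Levels per length moved when the longest transcript replaced all exons of a gene: in unstimulated WT to 46.7 RPKM for Hsd17b10, 30.3 for Bckdk, 30.3 for Bcat2, 21.4 for Bckdhb, 10.9 for Acadsb, 8.37 for Ivd, 7.77 for Hibch and 4.68 for Mccc1.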
